A study of Mus musculus with 6 samples.

Results

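Mallory-Denk bodies are inclusions of hepatocytes in which keratin filaments collapse together with stress proteins. The transcripts described here are those of 8 of their known components or regulators: the keratins Krt8 and Krt18, the crosslinking enzyme Tgm2, the adaptor Sqstm1, the polyubiquitin gene Ubb and the chaperones Hspb1, Hspa1b and Hspa8. They were chosen by gene name, and each had 1 row among the 14499 genes of the table. Like the gene lists used below, they were chosen with earlier results of these data known. Shares over all genes are set beside their counts as a description. They were measured by RNA-seq of whole liver in 3 libraries from mice that lack Arid1a in hepatocytes (Arid1a_KO_DDC) and 3 from wild-type mice (WT_DDC). Arid1a encodes a subunit of the BAF chromatin remodelling complex. All 6 came from mice of a mixed C57Bl/6; 129Sv background, 10 weeks after birth, with 2 weeks of injury by DDC, a porphyrinogenic compound, so no uninjured liver is compared here. The labels name neither the Cre driver nor any floxed allele of the wild-type mice. Whether liver cells other than hepatocytes keep Arid1a is therefore not known here. Nothing in the labels ties a library to a mouse of its own, and the p-values below therefore reflect differences among libraries that may be technical.

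In simple epithelia such as hepatocytes, filaments are obligate heteropolymers of the type II keratin 8 and the type I keratin 18. Under DDC these keratins are overproduced and misfolded, transglutaminase 2 crosslinks them, ubiquitin is attached, and the p62 protein encoded by Sqstm1 gathers the ubiquitinated material, while heat shock proteins bind the misfolded chains. In mice, an excess of keratin 8 over keratin 18 is known to favour the inclusions. Inclusions and protein were not measured here, and the levels below are those of transcripts alone.

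All 8 genes were expressed in all 6 libraries and passed the filter on low values, an FPKM (fragments scaled by gene length and by the mapped fragments of the library) of at least 1 in at least 3 libraries. On this scale, which allows for gene length, Krt8 had the highest mean level over the 6 libraries and stood at rank 120 of 14488 gene names, followed by Krt18 at rank 127, Hspa8 at 167, Sqstm1 at 249 and Ubb at 505. Tgm2 was at rank 947, Hspb1 at 3615 and Hspa1b at 6229. Knockout was compared with wild type by limma on log2(FPKM + 1) over all 11839 genes that passed the filter, and adjusted p-values are those of Benjamini and Hochberg over all of them, with a threshold of 0.05. By limma, 0 of the 8 members passed, and 2 of them, Krt8 and Hspa1b, had an unadjusted p under 0.05. Over all genes tested 0.49% passed, and 11.1% had an unadjusted p under 0.05. The differences were negative for 6 members and positive for 2, with a median of -0.32, where the median of all genes tested was 0.0034. A p that misses the threshold does not show that the levels were alike, and intervals are therefore given, from the fit without the library split described next. With library number as a term in limma, 4 members had an unadjusted p under 0.05, namely Krt8, Hspb1, Hspa1b and Hspa8, where 16.9% of all genes did, and 0 passed the threshold, where 0.777% of all genes did.

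**Figure D1:**
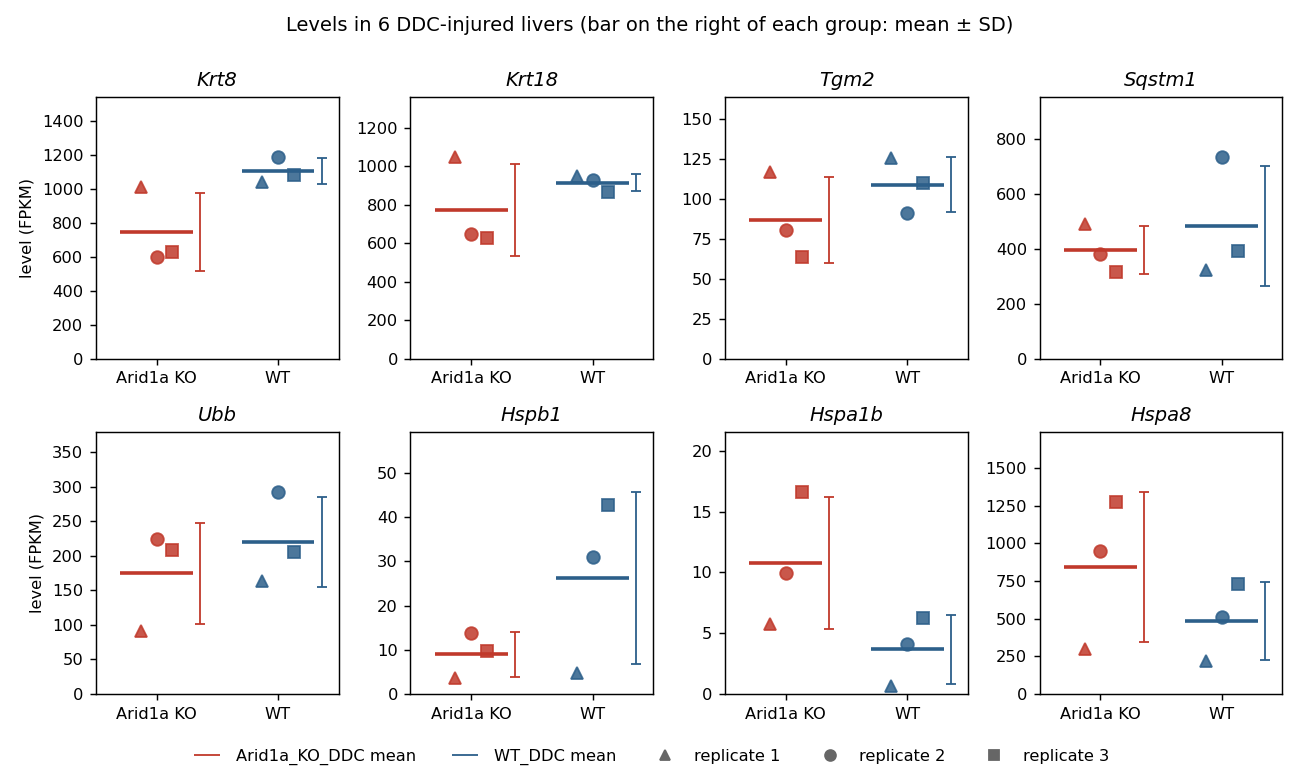
FPKM of the 8 genes in each library, with knockout left of wild type in each panel, marker shape for the replicate number, a horizontal line for the group mean and an error bar for the SD (n = 3 libraries each); every axis starts at 0. Krt8 is the gene without overlap between the groups, with knockout replicates 2 and 3 at 597 and 628 FPKM, and replicate 1 of both groups is low for Ubb, Hspb1 and Hspa8.

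Replicate 1 of both groups stood apart from the other libraries. Its library identifiers are L0567 (knockout) and L0566 (wild type), against L0602 to L0605 for the others, and the Y-linked Ddx3y was at 0.0227 FPKM in knockout and 0.0527 FPKM in wild type in replicate 1, against 11.1 and 11.3 FPKM in knockout and 9.27 and 10.8 FPKM in wild type in replicates 2 and 3. This split is balanced over genotype, and differences are therefore also given within it. Steps between low values put the depth of the other libraries at 0.904 to 1.16 times that of WT_DDC replicate 1, and absolute depth is unknown. Arid1a was at 6.61, 5.01 and 3.81 FPKM in knockout replicates 1 to 3, against 7.85, 5.48 and 5.98 FPKM in wild type (log2 difference -0.29, SE 0.22, limma adjusted p = 0.678). The groups overlapped, and knockout replicate 1 lay above wild-type replicates 2 and 3 but below wild-type replicate 1. Its Krt8, Krt18 and Dsp levels, described below, were near those of wild type. Its Krt23, Cldn4 and Ubd levels (0.895, 2.24 and 18.3 FPKM) were below those of every wild-type library. These genes are named for a small p in the fit that includes this library, so their levels do not check its genotype. The table gives no values by exon or by cell type, so the knockout could not be checked in any library, and the labels alone give the genotype. The 9 hepatocyte markers, from albumin to Hnf4a, were all present and summed to 46128 to 56616 FPKM in knockout and 43189.9 to 46442 FPKM in wild-type libraries. One by one, 6 were positive and 3 negative, where 50.6% of all genes tested were positive, and 0 passed in limma. Ttr was at 0.60 (adjusted p = 0.315) and Cyp2e1 at -1.29 (adjusted p = 0.43), so the sum hides opposite differences. In whole liver, fewer cells of a type and less RNA per cell cannot be told apart.

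Krt8 transcripts were lower in every knockout library than in any wild-type library, but the difference did not pass the test. Krt8 (ENSMUSG00000049382, chromosome 15, 101996698 to 102004482 on GRCm38, minus strand) encodes the type II partner of the filament. It had 1013, 597 and 628 FPKM in knockout replicates 1, 2 and 3, against 1044, 1189 and 1085 FPKM in wild-type replicates 1, 2 and 3. Knockout replicates 2 and 3 stood far below all wild-type libraries, whereas knockout replicate 1 lay just under the lowest of them. The means were 746 ± 232 FPKM in knockout and 1106 ± 74.6 FPKM in wild type (SD, n = 3 libraries each), a log2 difference of -0.61 (SE 0.23, 95% interval -1.16 to -0.06, limma adjusted p = 0.403). Groups that do not overlap were seen in 1 of the 8 members, which was lower, and in 16.6% of all genes tested, made up of 9.56% that were lower and 7.09% that were higher. The exact two-sided permutation p of Krt8 was 0.1, the smallest that 3 against 3 libraries can give. With the library number term the 95% interval of its log2 difference was -1.10 to -0.12 (limma adjusted p = 0.223).

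Krt18 (ENSMUSG00000023043, chromosome 15, 102028180 to 102032027, plus strand), the type I partner, lies 23697 bases from Krt8 in the annotation and points away from it. It had 1048, 645 and 626 FPKM in knockout replicates 1 to 3, against 949.6, 928 and 869 FPKM in wild type. Knockout replicate 1 was the highest of all 6 libraries and knockout replicates 2 and 3 were the lowest, so the groups overlapped. The means were 773 ± 238 FPKM in knockout and 915 ± 42.0 FPKM in wild type (SD, n = 3 libraries each), and the log2 difference was -0.28 (SE 0.23, 95% interval -0.83 to 0.26, limma adjusted p = 0.695). It was -0.52 without knockout replicate 1, -0.18 without knockout replicate 2 and -0.15 without knockout replicate 3.

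Both keratins had a larger difference within replicates 2 and 3 than within replicate 1. The knockout minus wild type difference of Krt8 was -0.04 within replicate 1, with 1 library per group, and -0.89 within replicates 2 and 3 (SE 0.13, limma adjusted p = 0.0753). For Krt18 it was 0.14 within replicate 1 and -0.50 within replicates 2 and 3 (SE 0.13, limma adjusted p = 0.17). As an interaction term in limma, the effect in replicates 2 and 3 minus that in replicate 1 was -0.85 for Krt8 (SE 0.23, adjusted p = 0.477) and -0.64 for Krt18 (SE 0.22, adjusted p = 0.533), neither past the threshold. No gene of the 11839 passed this interaction test in limma (0% of genes, with 9.05% at an unadjusted p under 0.05), and of the members Krt8, Krt18 and Hspb1 had an unadjusted p under 0.05 there.

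Krt8 relative to Krt18 was lower in every knockout library than in any wild-type library. With 3 libraries per group this alone does not establish a shift in the balance of the 2 filament partners. Among single genes, 16.6% of all genes tested did not overlap between the groups, in either direction. For ratios of other gene pairs this share was not computed. The ratio of Krt8 to Krt18, in FPKM, was 0.967, 0.925 and 1.005 in knockout replicates 1, 2 and 3, and 1.10, 1.28 and 1.25 in wild-type replicates 1, 2 and 3. All 3 knockout libraries thus had about equal levels of both keratins per length, and all 3 wild-type libraries had more Krt8 than Krt18. The mean ratio was 0.965 ± 0.0398 in knockout and 1.21 ± 0.0967 in wild type (SD, n = 3 libraries each), a difference of -0.244 (exact two-sided permutation p = 0.1, the smallest this design can give). The ratio is taken within a library and does not depend on scaling between libraries. With 1 library left out at a time the difference was between -0.299 and -0.209, where groups that do not overlap fix its sign, and it was -0.300 in replicates 2 and 3 alone, where the smallest possible p is 0.333. Of the 50-base windows of the Krt8 transcript in GENCODE M21, 26.9% also occur in the processed pseudogene Krt8-ps, against 0.72% of those of Krt18 in other genes, so part of the Krt8 level rests on how shared fragments were assigned.

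**Figure D2:**
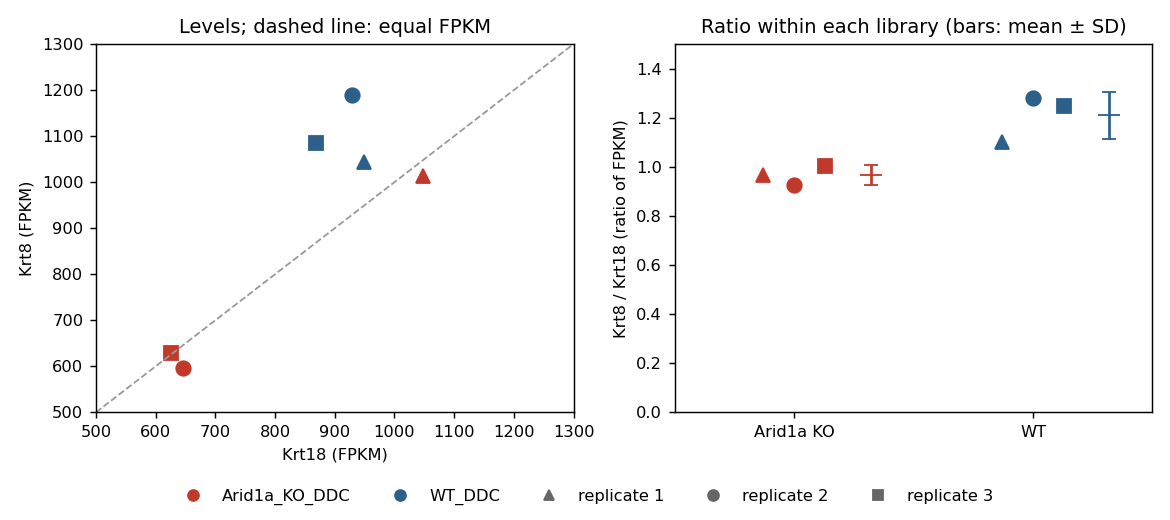
Left, Krt8 against Krt18 in FPKM, 1 point per library, with neither axis starting at 0; right, the ratio of Krt8 to Krt18 per library with the mean and SD of each group (n = 3 each). The knockout libraries lie on or near the line of equal FPKM at 0.925 to 1.005, and the wild-type libraries lie above it at 1.10 to 1.28.

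Cholangiocytes express both keratins too, together with Krt19 and Krt7. The summed level of Krt19 and Krt7 was 0.476%, 1.20% and 1.16% of the Krt8 level in knockout replicates 1 to 3, and 0.509%, 1.48% and 1.13% in wild-type replicates 1 to 3. Of 8 tested biliary and progenitor markers 2 fell in knockout livers, Cldn4, a tight junction protein, with a log2 difference of -1.42 (limma adjusted p = 0.0386), and the keratin Krt23, described next, and 0 rose; over all genes 0.355% fell. The 8 markers in the table summed to 218 to 430.3 FPKM in knockout and 139.7 to 408 FPKM in wild-type libraries, most of it Spp1, and none was at 0. One by one, 7 of the 8 markers were negative (median -0.64), 4 were lower at an unadjusted p under 0.05 and 4 were lower without overlap. Over all genes tested, 50.6% were positive, 11.1% had an unadjusted p under 0.05 in either direction and 9.56% were lower without overlap. The 4 markers without overlap include Sox9, a progenitor transcription factor, at -1.21 (adjusted p = 0.0815), and Epcam, an adhesion molecule of bile duct cells, at -0.67 (adjusted p = 0.307). The call of Cldn4 was lost without any 1 of the libraries other than wild-type replicate 1 and with a replicate block; with 1 library left out its difference lay between -1.60 and -1.30. The part of the biliary markers in the keratin levels was not tested.

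Among other filament and junction genes, 1 of 15 tested passed, where 0.49% of all genes did. This gene, Krt23, is the same one counted among the biliary markers. Krt23, a type I keratin known to be induced in injured mouse liver, fell to 0.895, 1.12 and 0.956 FPKM in knockout replicates 1 to 3, against 4.602, 10.9 and 6.32 FPKM in wild type (log2 difference -1.99, SE 0.28, limma adjusted p = 0.0447). Its knockout libraries were close to each other and all under the lowest wild-type one. Its call too was lost without any 1 of the libraries other than wild-type replicate 1, in replicates 2 and 3 alone and with a replicate block (adjusted p = 0.0819); with 1 library left out its difference lay between -2.23 and -1.69. Jup, or plakoglobin, and Dsp, or desmoplakin, which tie keratin filaments to desmosomes, did not pass, with log2 differences of -0.50 for Jup (limma adjusted p = 0.305) and -0.76 for Dsp (adjusted p = 0.481). Des, a filament protein of stellate cells, was at -0.40 (adjusted p = 0.474). For Dsp, knockout replicate 1 had 10.9 FPKM and knockout replicates 2 and 3 had 3.86 and 4.35 FPKM, against 9.60, 12.7 and 9.45 FPKM in wild type, so the order of the knockout libraries was like that of Krt8. The median of the 15 genes was -0.18.

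Tgm2 (ENSMUSG00000037820, chromosome 2, 158116402 to 158146436, minus strand) encodes transglutaminase 2, which crosslinks glutamine to lysine residues in keratin 8 among other proteins. It had 117, 80.4 and 63.7 FPKM in knockout replicates 1 to 3, against 126, 91.2 and 110.1 FPKM in wild type. Replicate 1 was the highest library of each group, and the groups overlapped. The log2 difference was -0.36 (SE 0.25, 95% interval -0.94 to 0.23, limma adjusted p = 0.647), -0.11 within replicate 1 and -0.48 within replicates 2 and 3. It was -0.59 without knockout replicate 1 and -0.16 without knockout replicate 3. Endothelial cells and macrophages also express Tgm2. The 7 endothelial markers summed to 58.2, 25.7 and 16.4 FPKM in knockout replicates 1 to 3, against 48.4, 31.4 and 57.6 FPKM in wild type, and 8 macrophage and monocyte markers summed to 385, 333 and 273 FPKM in knockout, against 573, 441 and 479 FPKM in wild type. None of these markers was at 0 and none passed the test (0 of 6 and 0 of 7 tested, by limma, with 0 and 2 lower at an unadjusted p under 0.05). Their part in the level of Tgm2 was not tested. Of the 2 genes tested in the transglutaminase list, Tgm1, best known from keratinocytes, was at 1.60 ± 0.147 FPKM in knockout and 4.28 ± 1.08 FPKM in wild type without overlap (-1.005, SE 0.18, limma adjusted p = 0.0982), and F13b, the carrier subunit of coagulation factor XIII, was at 73.9 ± 13.5 FPKM in knockout and 48.9 ± 12.5 FPKM in wild type (0.60, adjusted p = 0.386; SD, n = 3 libraries each).

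Sqstm1 (ENSMUSG00000015837, chromosome 11, 50199366 to 50210827, minus strand) encodes p62, which binds ubiquitin chains and the autophagosome protein LC3 and also holds KEAP1, the inhibitor of NRF2. It had 489, 380.2 and 316 FPKM in knockout replicates 1 to 3, against 322, 733 and 391.8 FPKM in wild type. Wild-type replicate 2 was the highest of all 6 libraries by far, and the other 5 interleaved. The log2 difference was -0.22 (SE 0.33, 95% interval -1.001 to 0.57, limma adjusted p = 0.844), and it was 0.13 without wild-type replicate 2, -0.46 without wild-type replicate 1, -0.38 without knockout replicate 1 and -0.068 without knockout replicate 3. It was 0.60 within replicate 1 and -0.63 within replicates 2 and 3, and the interaction did not pass (-1.23, SE 0.56, adjusted p = 0.585).

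The genes around p62 gave 0 calls by limma in both lists that cover them. Of 21 tested genes of selective autophagy 0 passed and 0 had an unadjusted p under 0.05, with a median of -0.03. Ulk1, the kinase that starts autophagosome formation, had -0.37 and Atg16l1, which places LC3 on membranes, 0.27 (adjusted p = 0.449 and 0.539), and Wipi1 and Calcoco1 had -0.40 and -0.28. Of 11 tested NRF2 targets and regulators, 10 had a positive difference and 0 passed, with a median of 0.33 and 1 gene in each direction at an unadjusted p under 0.05. Over all genes tested, 50.6% had a positive difference. Nqo1, a quinone reductase, was at 40.4 ± 7.81 FPKM in knockout and 24.7 ± 2.94 FPKM in wild type without overlap (0.68, SE 0.18, limma adjusted p = 0.231; SD, n = 3 libraries each). Hmox1, the heme oxygenase, which is also controlled by heme, was the 1 gene of the list with a negative difference, at 129, 63.3 and 44.7 FPKM in knockout and 179, 237 and 98.4 FPKM in wild type (-1.16, adjusted p = 0.421). Gsr and Me1 had 0.54 and 0.40.

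Ubb (ENSMUSG00000019505, chromosome 11, 62551171 to 62553213, plus strand) encodes a chain of ubiquitin units in tandem, a stress-responsive source of ubiquitin. It had 91.0, 225 and 208 FPKM in knockout replicates 1 to 3, against 163, 291 and 205 FPKM in wild type. Knockout replicate 1 was the lowest library and wild-type replicate 2 the highest. The log2 difference was -0.39 (SE 0.39, 95% interval -1.31 to 0.52, limma adjusted p = 0.752), -0.83 within replicate 1 and -0.17 within replicates 2 and 3, and it was 0.019 without knockout replicate 1, -0.63 without knockout replicate 2 and -0.17 without wild-type replicate 2. Of the 50-base windows of Ubb, 55.4% also occur in other genes, above all in Gm1821 and Gm8797, both listed in the table. These had 0.860 and 8.55 FPKM in wild-type replicate 2, where Ubb was highest, against 23.7 and 103 FPKM in wild-type replicate 3. Summed over the 3 genes, in FPKM, the level was 139, 372 and 316 in knockout replicates 1 to 3 and 283, 301 and 331 in wild type, so that wild-type replicate 2 no longer stood apart (log2 difference -0.26, SE 0.36, adjusted p = 0.828).

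Of 14 other ubiquitin genes and ubiquitin-handling factors tested, 0 passed in limma and 0 had an unadjusted p under 0.05, with a median of 0.05. Rps27a, which encodes ubiquitin fused to a ribosomal protein, had a log2 difference of 0.19 (limma adjusted p = 0.686), and Uba1, the main ubiquitin-activating enzyme, had -0.13 (adjusted p = 0.77). The ubiquitin-like modifier FAT10, encoded by Ubd and known to accumulate in livers of mice fed DDC, had a much larger difference. Ubd was at 18.3, 31.7 and 24.2 FPKM in knockout replicates 1 to 3, against 58.4, 129 and 95.4 FPKM in wild type. The groups did not overlap, and the log2 difference of -1.85 (SE 0.32) missed the threshold (limma adjusted p = 0.0864). Psmb9, an interferon-induced proteasome subunit, was at 14.9 ± 3.96 FPKM in knockout and 22.8 ± 1.41 FPKM in wild type (SD, n = 3 libraries each; -0.61, limma adjusted p = 0.305), while the constitutive subunits Psmb6 and Psmb7 had 0.23 and 0.19. Of these 9 genes 0 passed in limma, 2 were lower at an unadjusted p under 0.05, and the median was -0.10.

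The 3 chaperones did not share a direction between the genotypes. Hspb1 (ENSMUSG00000004951, chromosome 5, 135887919 to 135889563, plus strand), the small heat shock protein HSP25 of mice, had 3.53, 13.7 and 9.64 FPKM in knockout replicates 1 to 3, against 4.80, 30.9 and 42.7 FPKM in wild type. Knockout was below wild type both within replicate 1 and within replicates 2 and 3, and replicate 1 was low in both groups. The log2 difference was -1.17 (SE 0.80, 95% interval -3.07 to 0.73, limma adjusted p = 0.643), with -0.36 within replicate 1 and -1.58 within replicates 2 and 3 (SE 0.24, adjusted p = 0.0779). With the library number term the 95% interval was -1.92 to -0.42 (limma adjusted p = 0.164). The difference was -2.07 without wild-type replicate 1, -0.61 without wild-type replicate 3 and -0.68 without knockout replicate 1.

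Hspa1b (ENSMUSG00000090877, chromosome 17, 34956436 to 34959238, minus strand), an inducible HSP70, had 5.76, 9.97 and 16.6 FPKM in knockout replicates 1 to 3, against 0.641, 4.13 and 6.27 FPKM in wild type. The groups overlapped only through wild-type replicate 3 and knockout replicate 1. The means were 10.8 ± 5.45 FPKM in knockout and 3.68 ± 2.84 FPKM in wild type (SD, n = 3 libraries each), and the log2 difference was 1.47 (SE 0.59, 95% interval 0.06 to 2.88, limma adjusted p = 0.43), or 0.84 without wild-type replicate 1. On the scale used, this difference depends on the pseudocount, with 1.87 at a pseudocount of 0.1 and 0.86 at 5. Within replicate 1 it was 2.04, and within replicates 2 and 3 it was 1.19. With the library number term the 95% interval was 0.77 to 2.17 (limma adjusted p = 0.0979).

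Hspa8 (ENSMUSG00000015656, chromosome 9, 40800984 to 40810087, plus strand), the constitutive HSC70, had 298, 950.3 and 1274 FPKM in knockout replicates 1 to 3, against 216, 512 and 727 FPKM in wild type. Knockout was above wild type both within replicate 1 and within replicates 2 and 3, and replicate 1 was the lowest of each group. The log2 difference was 0.72 (SE 0.64, 95% interval -0.80 to 2.24, limma adjusted p = 0.721), with 0.46 within replicate 1 and 0.85 within replicates 2 and 3, and with the library number term the 95% interval was 0.22 to 1.22 (limma adjusted p = 0.184). The difference was 1.35 without knockout replicate 1, 1.096 without wild-type replicate 3, 0.30 without knockout replicate 3 and 0.22 without wild-type replicate 1.

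**Figure D3:**
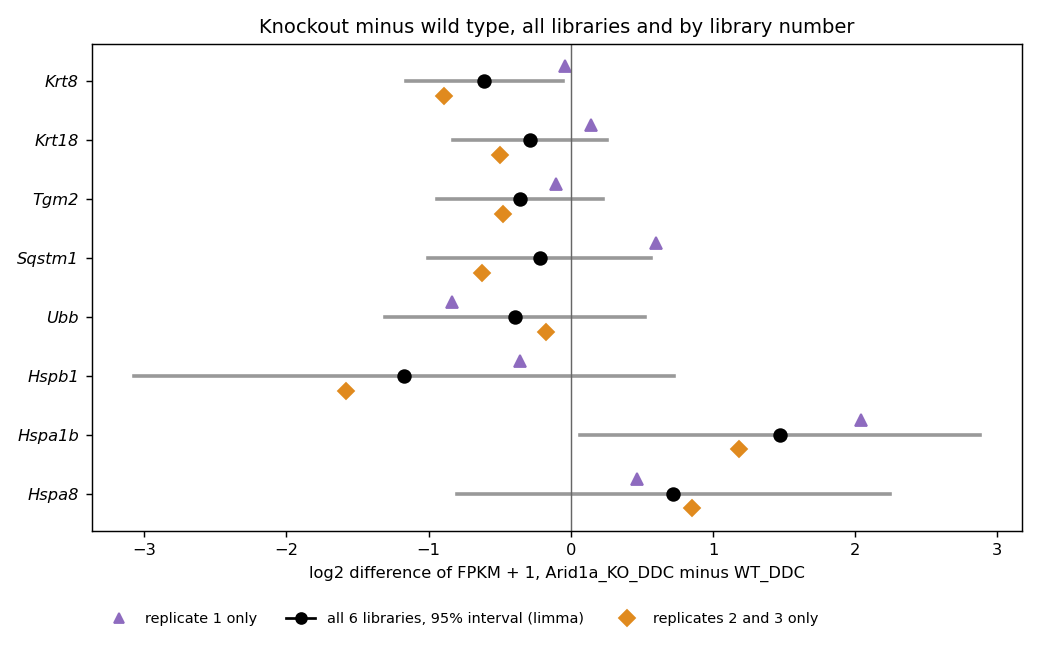
Knockout minus wild type difference of log2(FPKM + 1) for each gene (horizontal axis), over all 6 libraries with its 95% interval from limma (circle and line), within replicate 1 alone (triangle, 1 library per group) and within replicates 2 and 3 alone (diamond). For Krt18 and Sqstm1 the triangle and the diamond lie on opposite sides of 0, and for Hspa1b and Hspa8 all 3 marks are above 0.

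Within replicates 2 and 3 alone, 5 members, Krt8, Krt18, Tgm2, Sqstm1 and Hspb1, were lower in both knockout libraries than in both wild-type libraries, 2, Hspa1b and Hspa8, were higher, and Ubb overlapped. Over all genes tested, 25.9% were lower and 25.9% higher in this way, and no member passed the limma fit of these 4 libraries.

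The chaperones share much sequence with other genes, which bears on how far their levels can be separated. Of the 50-base windows of Hspa1b, 62.3% also occur in its neighbour Hspa1a (9951 bases apart, same strand) or in Hspa1l, and of those of Hspa8, 73.2% occur in 11 other genes, 1 of which, Gm15459, is listed in the table. For Hspb1 it was 51.6%, in the pseudogene Hsp25-ps1, and for Tgm2 and Sqstm1 it was 0%. Hspa1a had 0.780, 2.35 and 1.72 FPKM in knockout and 0.301, 1.15 and 1.29 FPKM in wild-type replicates 1 to 3. Hspa1b summed with Hspa1a had a log2 difference of 1.41 (SE 0.59, adjusted p = 0.449), and Hspa8 summed with Gm15459 one of 0.71 (SE 0.63, adjusted p = 0.721), close to those of the genes alone.

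The inducible chaperones are textbook targets of the heat shock factor HSF1, which binds inverted repeats of the letters GAA. The bases before the start of Hspa1b, Hspa1a and Hspb1 are shown because they hold this repeat. The sequences are from RefSeq on GRCm38.p6, 5′ to 3′ on the strand of the gene, and end at the base before the RefSeq start. Capitals mark the letters GAANNTTC, which read the same on both strands.
Hspa1b, chr17:34959239-34959488, minus strand: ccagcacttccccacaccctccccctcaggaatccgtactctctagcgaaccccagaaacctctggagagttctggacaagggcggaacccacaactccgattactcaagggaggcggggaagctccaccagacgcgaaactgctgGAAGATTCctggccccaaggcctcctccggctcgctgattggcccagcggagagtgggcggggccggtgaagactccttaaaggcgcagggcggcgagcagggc
Hspa1a, chr17:34972157-34972406, minus strand: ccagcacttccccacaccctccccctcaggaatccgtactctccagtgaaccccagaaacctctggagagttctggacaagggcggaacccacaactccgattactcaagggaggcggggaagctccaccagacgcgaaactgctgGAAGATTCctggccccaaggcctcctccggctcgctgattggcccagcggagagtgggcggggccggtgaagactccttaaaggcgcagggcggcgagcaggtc
Hspb1, chr5:135887669-135887918, plus strand: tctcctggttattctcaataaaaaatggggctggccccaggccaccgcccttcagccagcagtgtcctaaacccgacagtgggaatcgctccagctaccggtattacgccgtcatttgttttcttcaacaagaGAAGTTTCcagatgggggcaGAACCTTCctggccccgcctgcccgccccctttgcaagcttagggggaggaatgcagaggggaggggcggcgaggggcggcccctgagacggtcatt

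The windows of Hspa1b and Hspa1a, of 300 bases with 50 after the start, differed at 4 positions, 3 of them before the start. GAANNTTC was found once in each of these 2 windows and at 2 places in that of Hspb1, with no overlap between them, and in 7.86% of the 32851 RefSeq windows of the same kind. The motif TTCNNGAA, also its own reverse complement, was in none of the 3 windows and in 8.52% of all. Of the 28 other heat shock and co-chaperone genes listed, 23 had a window and 12 of these, or 52.2%, held GAANNTTC, against 9.04% of all 27025 symbols. The windows of Krt8, Krt18, Sqstm1 and Ubb held neither motif. RefSeq windows were matched for 6 of the 8 members, and Hspa8 and Tgm2 are named only. A match of letters is a description and not a binding site.

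Levels of many heat shock genes followed the split between replicate 1 and the other libraries, in both genotypes. Ubb, Hspb1 and Hspa8 were lower in replicate 1 of both groups than in all 4 other libraries, which was so for 17.2% of all genes tested, and Krt18 and Tgm2 were higher there, which was so for 11.3%. The difference of replicates 2 and 3 minus replicate 1, with genotype in the model, was 2.08 log2 units for Hspb1, 1.69 for Hspa8, 1.47 for Hspa1b and 0.91 for Ubb, against a median of 0.04 over all genes tested. For Krt8 it was -0.30, for Krt18 -0.40, for Tgm2 -0.51 and for Sqstm1 0.12.

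Among the 28 other heat shock and co-chaperone genes, all tested, 15 were lower in replicate 1 of both groups than in every other library and 0 were higher, with a median difference of replicates 2 and 3 minus replicate 1 of 0.41. Hsph1, an HSP110 that acts with HSP70, had 7.18 FPKM in knockout and 3.39 FPKM in wild-type replicate 1, against 27.7 and 34.5 FPKM in knockout and 7.94 and 21.5 FPKM in wild-type replicates 2 and 3. Chordc1, an HSP90 partner, had 8.26 FPKM in knockout and 5.01 FPKM in wild-type replicate 1, against 22.9 and 26.7 FPKM in knockout and 14.7 and 25.3 FPKM in wild-type replicates 2 and 3; both genes were chosen after their values were seen. Hsf1 itself was also among the 15. The level of Ddx3y and the library number change together in this split and cannot be told apart; the labels give no sex.

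Between the genotypes 0 of these 28 genes passed in limma and 2 were higher at an unadjusted p under 0.05. The difference was positive for 22 and negative for 6, with a median of 0.26, where 50.6% of all genes tested were positive. Of the 28 genes, 4 were higher and 2 lower without overlap, against 7.09% and 9.56% of all genes tested. The mitochondrial chaperonins Hspe1 and Hspd1, which share a promoter, were at 266 ± 57.9 and 188 ± 17.8 FPKM in knockout, against 179 ± 21.4 and 149 ± 5.76 FPKM in wild type, and neither overlapped between the groups (0.56 and 0.34; limma adjusted p = 0.357 and 0.423; SD, n = 3 libraries each). Hspb6 and Hspa4l had -0.38 and -0.46 (adjusted p = 0.465 and 0.485), also without overlap. These 4 genes are named because they had the smallest p of the list, which favours genes without overlap.

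**Figure D4:**
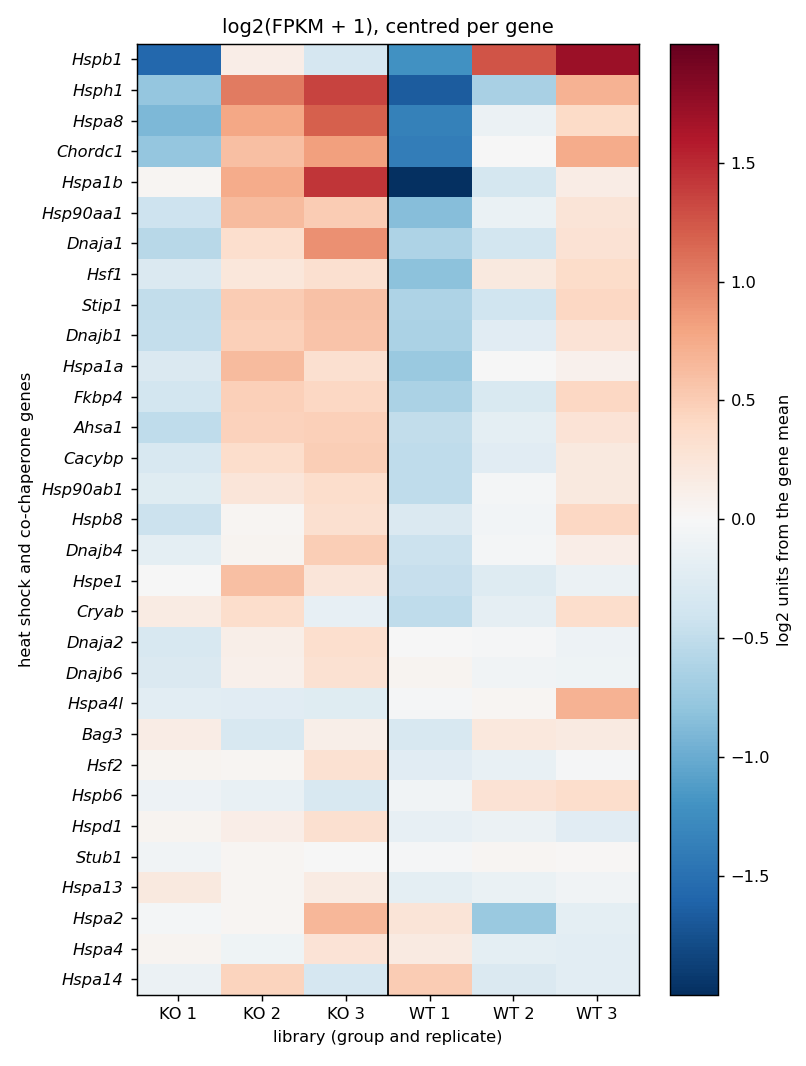
log2(FPKM + 1) of Hspb1, Hspa1b, Hspa8 and the 28 other heat shock and co-chaperone genes in the 3 knockout (KO) and 3 wild-type (WT) libraries, centred on the mean of each gene, from blue (below) to red (above); rows are ordered by the difference of replicates 2 and 3 minus replicate 1. In the upper rows, except knockout replicate 1 of Hspa1b, the columns of replicate 1 are blue in both genotypes, and in the top row, Hspb1, wild-type replicates 2 and 3 are redder than those of knockout.

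For members whose level spanned at least 1 log2 unit over the 6 libraries, the 3 genes with the most similar centred profile are named, among 6981 genes with a mean of at least 5 FPKM. The measure is the root mean square distance in log2 units over 6 libraries that share genotype and library number. Nearest to Hspa8 were Chordc1 (0.235), Pfkfb1, an enzyme of glycolytic control (0.267), and Tsku (0.276), and nearest to Hspa1b were Cyp2c67, a cytochrome P450 (0.171), Rtp3 (0.284) and Tmem25 (0.338). Nearest to Hspb1 were Cry1, a repressor of the circadian clock (0.537), Pnrc1 (0.538) and Cyp21a2-ps (0.539), at larger distances than for the other members. Nearest to Sqstm1 were Snapc2 (0.106), the deubiquitinase Usp3 (0.121) and S100a10, a partner of annexin A2 (0.143), and nearest to Ubb were Nrbp2 (0.146), Ccdc24 (0.199) and Grina (0.205). Krt8, Krt18 and Tgm2 spanned less than 1 log2 unit.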

How the data were processed

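The deposited values are log2 FPKM per gene in 6 library columns. The submitters' processing notes name Cufflinks, TopHat2 2.0.6, mm10 and GRCm38. No source used here states the annotation or how fragments matching several genes were assigned. The lowest log2 value, -10, stands for an FPKM of 0 with an offset of 0.000977, which was removed. Since these are not counts, count models do not apply. Log2(FPKM + 1) of genes with at least 1 FPKM in at least 3 libraries was fitted with limma 3.58.1 in R 4.3.3 (eBayes with trend, two-sided, Benjamini-Hochberg adjustment); such differences understate changes of low genes, and their errors are limma standard errors. The fit was tested on simulated data with 100 genes changed by 1 log2 unit and 100 by 2 log2 units. It called 44 and 94 of these, and 11 of its 149 calls were unchanged genes. Ratios were compared by exact permutation in scipy 1.17.1. Sequence windows of 50 bases, a length chosen here, came from the longest coding transcript of each gene in GENCODE M21, sense strand, and positions from the same release.

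The members and lists (filaments, heat shock, ubiquitin, autophagy, FAT10 and proteasome, NRF2, transglutaminases, and markers of 9 cell types) were chosen with earlier results of these data known. Members are named whatever their values, and of each list every gene past the threshold and up to 4 with the smallest p; marker lists are given by their counts and sums, and genes otherwise named are said to be. Some genes that this rule names are not reported here. The alternatives tried changed the pseudocount (0.1 or 5) and the filter (none, or 5 FPKM), or used 2 other scalings, 2 other variance settings, summed rows, a replicate block, a library number term or subset, and leaving out each library.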

Additional observations from a re-analysis of the deposited data

Results flagged for a closer look

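Krt18 and Sqstm1 were flagged because the knockout effect had opposite signs in replicate 1 and in replicates 2 and 3. Replicate 1 has 1 library per group, and in replicates 2 and 3 the groups did not overlap. Over all genes tested, 25.9% were lower and 25.9% higher without overlap in replicates 2 and 3. The share of all genes that meet the whole rule was not computed, and no gene passed the interaction test. For Krt18 the difference was 0.14 in replicate 1 and -0.50 in replicates 2 and 3, and the interaction term in limma was -0.64 (SE 0.22, unadjusted p = 0.0352, adjusted p = 0.533). For Sqstm1 it was 0.60 in replicate 1 and -0.63 in replicates 2 and 3, with an interaction of -1.23 (SE 0.56, unadjusted p = 0.0824, adjusted p = 0.585).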

How the results depend on the processing

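The count of genes past the threshold, 58 over the whole table, was 12 with no filter, 0 with a replicate block (limma, 1718 at an unadjusted p under 0.05) and 92 with a library number term, and 0 to 67 with 1 library left out. It was 35 without WT_DDC replicate 1, and 6 and 2 without replicates 2 and 3 of WT_DDC. Without Arid1a_KO_DDC replicate 3 it was 0 (limma, 918 at an unadjusted p under 0.05). These fits have 1 library fewer, and the replicate block and the library number term leave fewer degrees of freedom. Among such fits the count also rose, to 67 without Arid1a_KO_DDC replicate 1 and 92 with the library number term. The cause was not tested. The count of members past the threshold was 0 under every alternative run. Of 147 comparisons of their log2 differences with an alternative, 56 could not move the value, since those settings change only its error or the genes tested. In the other 91 the direction was kept in 89. The exceptions were Sqstm1, at 0.13 without WT_DDC replicate 2 (range with 1 library left out -0.46 to 0.13), and Ubb, at 0.019 without Arid1a_KO_DDC replicate 1 (range -0.63 to 0.019); the cause was not tested. The difference in the Krt8 to Krt18 ratio was -0.299 to -0.209 when 1 library was left out, and its sign could not change there because the groups do not overlap. Replicate numbers are shared between the groups, but the deviations of same-numbered libraries correlated at 0.346, 0.133 and 0.0212 for numbers 1, 2 and 3, and knockout replicates 2 and 3 correlated more with another number, so they are not treated as pairs. With the replicate block, adjusted p of the members lay between 0.116 and 0.783, the calls of Krt23 and Cldn4 were lost (0.0819 and 0.0851), as they were with no filter and with a pseudocount of 5, and the paired difference of the keratin ratio was -0.244 (exact sign-flip p = 0.25, the smallest possible). Summing Ubb, Hspa1b and Hspa8 with genes of shared sequence was chosen after seeing the data. Without absolute depths, counting error could not be estimated.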

Other observations

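Over the 9 marker lists, 2 of 54 tested genes passed in limma, both lower and both biliary, where 0.49% of all genes passed. They are the Cldn4 and Krt23 already described. Erythroid markers, of which only Hbb-bt was at 0 in any library, summed to 337.5 to 535 FPKM in knockout and 240.3 to 308 FPKM in wild-type libraries. Alas2, the heme synthesis enzyme of erythroid cells, had 33.2, 102 and 103 FPKM in knockout replicates 1 to 3, against 4.29, 29.4 and 16.1 FPKM in wild type (log2 difference 2.35, SE 0.71, limma adjusted p = 0.285). Stellate and fibroblast markers summed to 119 to 208 FPKM in knockout and 193 to 284 FPKM in wild type, and neutrophil markers to 13.995 to 27.4 FPKM in knockout and 33.5 to 59.5 FPKM in wild type. T and NK cell markers summed to 2.58 to 11.1 FPKM in knockout and 10.6 to 17.8 FPKM in wild type. B and plasma cell markers summed to 20.3, 7688 and 24.0 FPKM in knockout replicates 1 to 3 and to 1532 to 5521 FPKM in wild type.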
